A study of Homo sapiens with 3 samples.

Results

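The regions described here are intergenic DICER-bound clusters, stretches of RNA marked by crosslinked reads that touched no annotated gene and no annotated small RNA. A cluster was taken when it lay off the mitochondrial chromosome, named no gene on either strand, fell in no exon, intron or annotated noncoding transcript, and matched no Alu, LINE, LTR, rRNA, tRNA, snRNA, scRNA or srpRNA repeat on either strand. This left 496 of 11577 clusters in replicate 1, 1085 of 18065 in replicate 2 and 286 of 5099 in replicate 3. In a series-wide list drawn up by the authors from all replicates it left 393 of 8469. The rule used annotation alone, and no value of depth or replicate support entered it. It does restrict position, since clusters in genes were left out. It also leaves annotated small RNAs among the clusters used for comparison.

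Dicer, an RNase III protein, trims hairpin precursors to mature miRNAs, and it also binds other structured RNAs. Much of the genome between genes is transcribed at a low level. Well-known sources of such RNA are promoters, many of which fire in both directions and give short-lived upstream antisense transcripts, and gene ends, where RNA polymerase II runs on past the polyadenylation site before it stops. Some annotation-free RNA comes from genes that were not yet catalogued.

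The study asked which RNAs human DICER binds. PAR-CLIP (photoactivatable ribonucleoside-enhanced crosslinking and immunoprecipitation) feeds cells a photoreactive uridine analogue, links RNA to protein with light, and reads the links as T-to-C conversions in the sequenced fragments. All samples came from 1 group, namely FLAG:DICER Flp-In HEK293 T-Rex, made from a long-established human embryonic kidney line by adding a tagged DICER transgene, and are labelled T1 after the RNase used. The 3 replicates are not said to be separate cultures, so their spread may be technical, and no untagged control was analysed here, so background binding was not subtracted. Reads are repeated copies of far fewer distinct reads, so conversions and reads are not counts of separate molecules.

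Because many of the clusters lie upstream of annotated starts on the other strand, the promoters of 3 genes with such a cluster in all replicates are shown: SLC44A1, a choline transporter; USF2, a helix-loop-helix transcription factor; and CDK5RAP1, an enzyme that modifies mitochondrial tRNAs. Each line gives the 250 bases before the RefSeq start in GRCh38.p14, 5′ to 3′ on the strand of the gene. Capitals mark the GC box, searched as GGGCGG on both strands, where overlapping matches form 1 stretch.

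SLC44A1: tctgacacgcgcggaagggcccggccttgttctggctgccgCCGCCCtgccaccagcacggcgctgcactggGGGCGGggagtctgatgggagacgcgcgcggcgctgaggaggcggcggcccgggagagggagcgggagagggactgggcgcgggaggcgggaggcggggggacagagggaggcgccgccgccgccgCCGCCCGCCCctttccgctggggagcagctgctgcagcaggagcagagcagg
USF2: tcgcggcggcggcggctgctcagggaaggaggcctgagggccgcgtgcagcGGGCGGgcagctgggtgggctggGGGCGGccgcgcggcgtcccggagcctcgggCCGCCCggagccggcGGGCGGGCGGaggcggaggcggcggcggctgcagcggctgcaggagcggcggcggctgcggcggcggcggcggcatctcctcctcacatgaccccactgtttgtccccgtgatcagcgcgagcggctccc
CDK5RAP1: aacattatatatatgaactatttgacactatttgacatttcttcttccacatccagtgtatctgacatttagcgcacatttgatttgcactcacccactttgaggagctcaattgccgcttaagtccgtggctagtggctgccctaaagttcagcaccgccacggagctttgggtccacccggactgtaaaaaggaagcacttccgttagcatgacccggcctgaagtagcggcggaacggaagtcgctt

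The SLC44A1 promoter lies at chr9:105244401-105244650 (plus), that of USF2 at chr19:35268712-35268961 (plus) and that of CDK5RAP1 at chr20:33401520-33401769 (minus). The SLC44A1 window held 3 GC box stretches, 30 CG dinucleotides and 77.6% G or C, and the USF2 window held 4 stretches, 39 CG dinucleotides and 80.8% G or C. CDK5RAP1 had a different promoter, with 0 GC boxes, 12 CG dinucleotides and 48% G or C. Over 27305 promoters of the same length in the RefSeq table, 41.3% held a GC box, and the medians were 10 CG dinucleotides and 57.6% G or C. These windows belong to another build than the clusters (hg19), so the clusters were not placed in them. All other coordinates below are hg19.

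Intergenic clusters were numerous but shallow. They made up 4.28%, 6.01% and 5.61% of clusters in replicates 1 to 3 (mean 5.30% ± 0.902, SD, n = 3). Their share of conversions was only 0.625%, 0.747% and 0.988% (mean 0.787% ± 0.185, SD, n = 3), from 8161, 7926 and 5885 conversions. The share of conversions was below the share of clusters in 3 of 3 replicates, by a mean of -4.51 ± 0.805 percentage points (SD, n = 3; exact two-sided sign-flip permutation p = 0.25, the smallest that 3 replicates allow). Their share of distinct reads, 1.87%, 2.88% and 2.65%, lay between both.

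The shallowness sat mainly at the top of the range, and less in the typical cluster. The median intergenic cluster carried 11, 5 and 16 conversions in replicates 1 to 3, against 13, 5 and 19 for all other clusters. The difference of median log2 conversions was -0.24, 0 and -0.25 (mean -0.16 ± 0.14, SD, n = 3; exact sign-flip permutation p = 0.5), so the typical cluster was lower in 2 of 3 replicates and equal in the other. At 50 or more conversions the intergenic share was thin: 24, 7 and 9 clusters, or 4.84%, 0.645% and 3.15%, against 9.63%, 3.46% and 9.85% of other clusters. The other clusters include those in small RNA annotation, and neither depth nor the share of conversions was compared without them. The deepest intergenic cluster had 322, 350 and 367 conversions. Most had few converted positions: 52.8%, 84.0% and 95.1% of intergenic clusters rested on 1 converted position, against 43.1%, 77.9% and 89.0% of the others. They were short, with median lengths of 29.5, 28 and 26.5 nt. Neither strand was preferred, with 245 on plus and 251 on minus in replicate 1, 537 and 548 in replicate 2, and 137 and 149 in replicate 3.

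The deepest site that recurred lay on the minus strand of chromosome 9 at chr9:108006629-108006676, in the upstream window of SLC44A1 on the opposite strand. Replicates 1 to 3 gave 322, 350 and 54 conversions there, on 20, 26 and 6 distinct reads. Replicate 3 was the low one. Conversions came to 97.6%, 96.2% and 100% of reads. The files do not define the conversion number; it exceeded the read number in 0 clusters of any list, so it is read here as the number of converted reads. The site took 0.0222% ± 0.0121 (SD, n = 3) of all conversions, and in the series-wide list, with 567 conversions, it ranked 210 among all clusters.

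A site at chr1:239528122-239528157 (minus) had close raw conversion numbers in lists of unequal depth (1306125, 1060791 and 595487 conversions in replicates 1 to 3). It gave 188, 173 and 138 conversions from 1741, 1389 and 1065 reads, and from 138, 120 and 87 distinct reads. It was the intergenic cluster with the most reads in every list. Yet only 10.8%, 12.5% and 12.96% of its reads were converted, while the median intergenic cluster had 100% in each replicate. By conversions it held 0.0180% ± 0.00462 (SD, n = 3) of its list, by distinct reads 0.177% ± 0.104 and by all reads 0.0876% ± 0.0185. No annotated transcript lay within the windows in the files, and no cluster in a gene lay within 10 kb on its strand.

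Low conversion marked a few other intergenic clusters rich in reads. A minus-strand cluster at chr5:90656278-90656308 had 745 reads and 28 conversions in the series-wide list, or 3.76% of reads. One at chr20:36065452-36065482 (minus) had 805 reads in replicate 1 and 8.70% converted; both were singled out after their values were seen. Clusters with under 50% of reads converted were 76, 50 and 7, or 15.3%, 4.61% and 2.45% of intergenic clusters. Among all other clusters the same shares were 15.7%, 4.28% and 4.26%, which differ by less than 2 percentage points in each replicate.

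**Figure D1:**
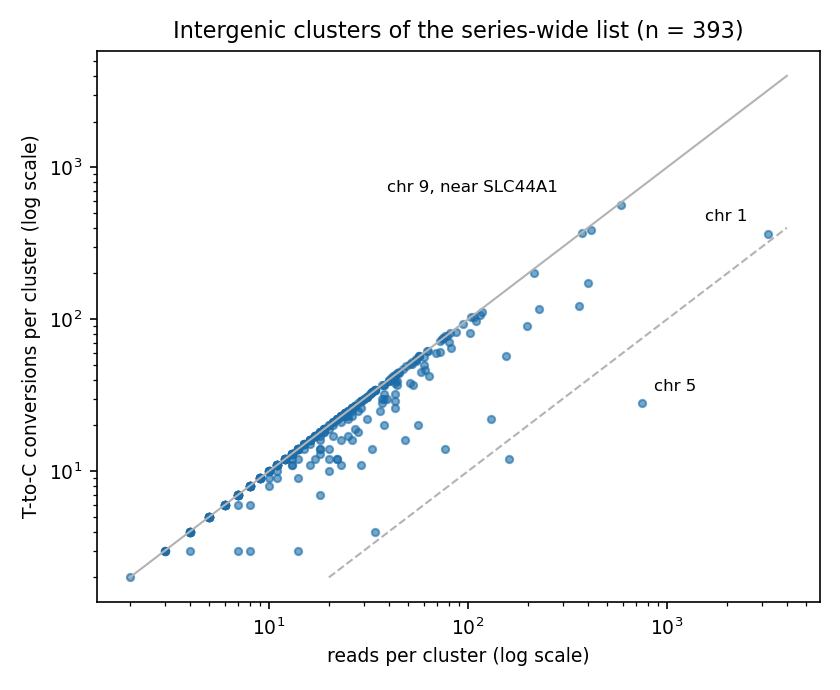
Reads per cluster (x, log scale) against T-to-C conversions per cluster (y, log scale) for the 393 intergenic clusters of the series-wide list, 1 point each; the solid line marks 1 conversion per read and the dashed line 1 in 10. Most points follow the solid line, and the chromosome 1 site with 3201 reads and the chromosome 5 site with 745 reads fall far below it.

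Of the other deep sites, chr4:120974617-120974654 (minus) had 85, 245 and 122 conversions on 12, 19 and 4 distinct reads, highest in replicate 2. It lay 6004 nt downstream of a cluster in MAD2L1, which encodes a spindle checkpoint protein, on the same strand. At chr8:41089606-41089633 (minus) there were 140, 42 and 32 conversions, and the converted share of reads was 40.3%, 59.2% and 78.0%. The site at chr5:105889164-105889205 (plus) went the other way, with 11, 34 and 190 conversions, so replicate 3 decides its mean share of 0.01198%, which was 0.00202% without that replicate. Neither of the latter sites had a gene cluster within 10 kb.

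Several deep sites had no intergenic cluster in the list of replicate 3. At chr19:44711844-44711900 (plus) replicate 1 had 207 conversions and replicate 2 had 15, with no cluster in replicate 3; it lay 9614 nt downstream of a cluster in TCONS_00027051, a transcript without a gene symbol. Without replicate 1 its mean share of conversions fell from 0.00575% to 0.000707%. The site at chr6:41417780-41417835 (plus), in an old MIR SINE repeat, had 37 and 75 conversions in replicates 1 and 2. A site at chr6:74222863-74222914 (minus) lay 2654 nt downstream of a cluster in EEF1A1, the abundant translation elongation factor. It had 67 conversions in replicate 2, while the overlapping cluster of replicate 1, with 78, touched a LINE on the opposite strand and was left out by the rule.

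CDK5RAP1 had the deepest opposite-strand promoter site after SLC44A1 in the series-wide list. It lay at chr20:31989405-31989449 (plus), in a hAT-Charlie DNA transposon, with 81, 36 and 5 conversions. Replicate 3 supported it with 2 distinct reads. The site opposite LSR, a lipoprotein receptor, and USF2, at chr19:35758947-35759037 (minus), showed the reverse order, with 34, 36 and 79 conversions on 7, 19 and 6 distinct reads. A site opposite FOXI3, a forkhead transcription factor, at chr2:88752372-88752433 (plus), had 79, 18 and 8.

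**Figure D2:**
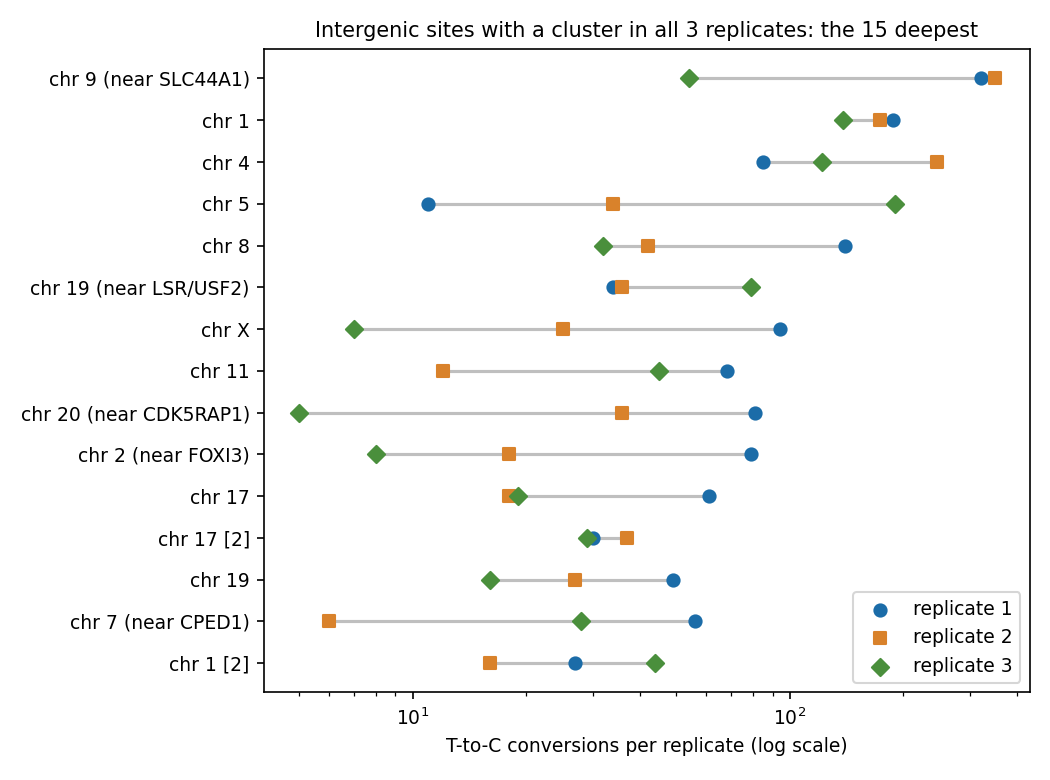
T-to-C conversions (x, log scale) at the 15 intergenic sites with a cluster in all 3 replicates and the most conversions summed over them (y, by chromosome and, where the files give one, the gene with an annotated window there; a bracketed 2 marks the second such site of a chromosome). The chromosome 9 site at the top spans 54 to 350. The chromosome 1 site just below it spans 138 to 188, while the chromosome 5 site spans 11 to 190.

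The label was checked against other clusters with small RNA annotation within 100 nt. Few intergenic clusters lay that near one, but the deepest one of replicate 3 went against the label. A small RNA without a cluster of its own would be missed by this check. Clusters left out by the rule in another replicate overlapped 4, 6 and 8 intergenic clusters of replicates 1 to 3 (0.806%, 0.553% and 2.80%). At chr17:29877166-29877205 (plus) replicate 3 had 367 conversions and no small RNA annotation, whereas the overlapping clusters of replicates 1 and 2, with 1434 and 745 conversions, were annotated as tRNA. It alone held 6.24% of the intergenic conversions of replicate 3. In all, 3, 3 and 4 intergenic clusters of replicates 1 to 3, and 3 in the series-wide list, overlapped a tRNA cluster of any replicate or lay within 100 nt of one, and all that did not overlap lay on its 3′ side. The best of them outside chromosome 17 was chr16:3203023-3203099 (plus), with 68 conversions in replicate 1, 32 nt beyond a tRNA cluster of 784. Leaving out the deepest intergenic cluster of each list changed the gap between the conversion and cluster shares from -4.51 to -4.54 percentage points.

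A further site stood apart in the series-wide list. At chr11:116332718-116332736 (minus) that list held 388 conversions from 413 reads, the second highest intergenic value, on 8 distinct reads and 1 converted position, with reads from 3 libraries. No replicate list had a cluster there. At 19 nt it was shorter than every cluster of replicates 1 and 3, whose shortest were 24 and 20 nt, and as short as the shortest of replicate 2, at 19 nt. The next highest series-wide intergenic cluster without a replicate cluster had 26 conversions.

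Replicate support was low. In the whole of each list, 11.8%, 7.51% and 27.9% of clusters in replicates 1 to 3 overlapped, by 1 nt or more on their strand, a cluster in both other replicates. For intergenic clusters this held for 40 of 496 (8.06%), 42 of 1085 (3.87%) and 43 of 286 (15.03%). The difference from all other clusters was -3.94, -3.87 and -13.6 percentage points (mean -7.15 ± 5.62, SD, n = 3; exact two-sided sign-flip permutation p = 0.25), lower in 3 of 3 replicates. The 3 values are not independent, because each counts largely the same shared sites from another list. Neither the test nor the shared direction therefore stands for 3 separate results. Weighting the other clusters to the same make-up by distinct reads gave -0.448, -1.22 and -8.27 (mean -3.31 ± 4.31, SD, n = 3). Leaving clusters in small RNA or noncoding transcript annotation out of the others gave -0.203, -1.16 and -5.21 (mean -2.19 ± 2.66, SD, n = 3). Intergenic clusters were thus below the others in each replicate under every one of these settings, but in replicate 1 by under 1 percentage point after either adjustment.

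Support rose with the number of distinct reads. With 2 distinct reads, 2.26%, 0.834% and 8.80% of intergenic clusters were overlapped in both other replicates, against 2.13%, 0.911% and 16.2% of the others. With 6 to 10 distinct reads the intergenic shares were 30% (12 of 40), 23.2% (13 of 56) and 66.7% (4 of 6), and those of other clusters 24.7%, 30.2% and 94.4%. Above 10 distinct reads, 10 of 22, 11 of 23 and 4 of 4 intergenic clusters were shared, against 64.2%, 74.1% and 98.5% of the others. In replicates 1 and 2 the gap was therefore widest among clusters with the most distinct reads.

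**Figure D3:**
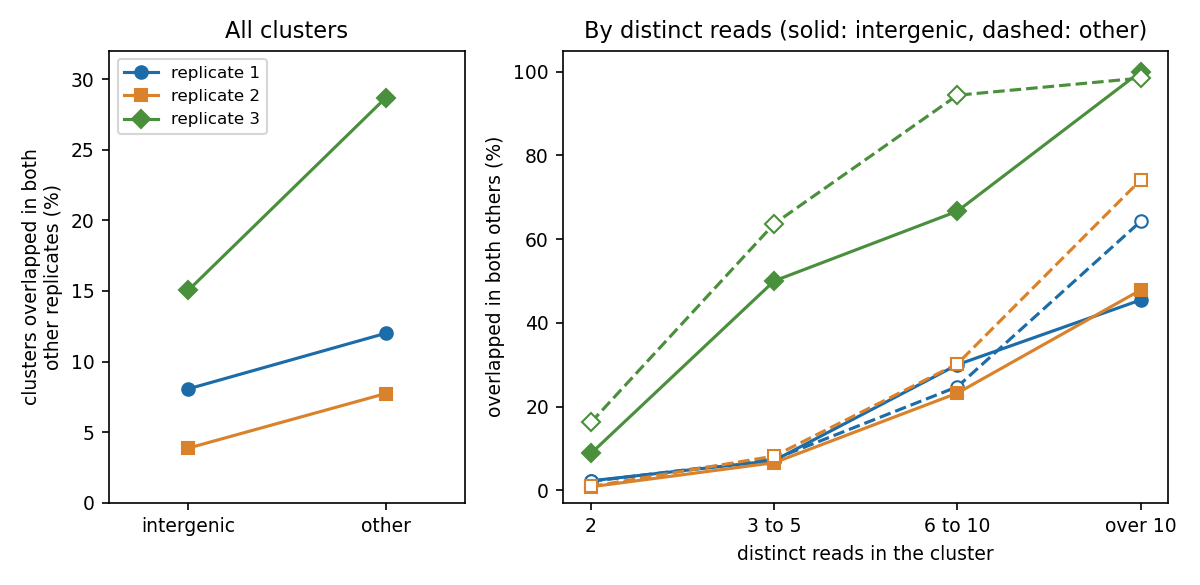
Share of clusters (y, %) overlapped on the same strand in both other replicates, by replicate (colour and marker), for intergenic and all other clusters (left) and by the number of distinct reads in the cluster (right; solid lines intergenic, dashed lines other). Intergenic clusters lie lower at the left in all 3 replicates, and both kinds rise with distinct reads.

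Merged over replicates, the clusters formed 1630 intergenic sites, of which 1438 (88.2%) came from 1 replicate, 152 (9.33%) from 2 and 40 (2.45%) from 3. Only intergenic clusters were merged, so an overlapping cluster left out by the rule did not count. Sites were not merged over all clusters. Per list, 64.7%, 82.6% and 72.4% of intergenic clusters were overlapped in neither other replicate, against 62.2%, 75.0% and 58.5% of all clusters. Replicates 1 and 2 alone shared 119 sites, replicates 2 and 3 shared 23, and replicates 1 and 3 shared 10. The 40 sites held 21.8%, 17.2% and 20.8% of the intergenic conversions of replicates 1 to 3. Even there the raw conversions varied, with a median ratio of the highest to the lowest replicate of 3.38 (range 1 to 17.3). This ratio was not adjusted for the unequal depth of the lists. In 20 of the 40 sites each replicate had at least 3 distinct reads, and in 7 at least 6. By position, 17 of the 40 were distal, 13 lay opposite an upstream window, 7 upstream on the same strand, 2 downstream on the same strand and 1 opposite a downstream window. The opposite-strand upstream share was 32.5% of the 40, against 16.1% of sites seen in 1 replicate, given as a description.

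In the series-wide list, 15.9% of all clusters were overlapped in all 3 replicate lists, and 40 of 393 intergenic clusters (10.2%) were. Another 142 were overlapped in 2 lists, 143 in 1 and 68 (17.3%) in none, where 14.3% of other clusters were in none. Of the recurrent sites not yet described, chrX:52964448-52964508 (plus) had 94, 25 and 7 conversions in replicates 1 to 3. The site chr11:27912563-27912600 (minus) had 68, 12 and 45. At chr17:66016267-66016293 (plus) there were 61, 18 and 19. By raw conversions, not adjusted for list depth, these 3 distal sites had replicate 1 highest, as did 20 of the 40. At chr19:50594026-50594068 (minus) the values were 49, 27 and 16, and at chr7:120938083-120938128 (minus), opposite the downstream window of CPED1, they were 56, 6 and 28. The site at chr1:77166078-77166116 (plus), with 27, 16 and 44, had replicate 3 highest in raw conversions, as did 12 of the 40. The site at chr17:36507737-36507829 (plus), upstream of SOCS7, a suppressor of cytokine signalling, had 20, 46 and 15, and lay 513 nt before a cluster in that gene.

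Around genes, intergenic clusters showed a strand pattern. The files mark windows before annotated starts and after annotated ends, whose names give 1000 nt; their exact limits are not defined in the sources used here. About 52.9% ± 3.80 of intergenic clusters (SD, n = 3) lay in no window and are called distal. Those upstream of a start on the opposite strand made up 20.7% ± 2.06, those upstream on the same strand 11.4% ± 1.03, those downstream of an end on the same strand 11.98% ± 1.89, and those downstream on the opposite strand 1.89% ± 0.198 (SD, n = 3). Clusters that lay in windows both before a start and after an end on their own strand were 1.13% ± 0.301. A cluster in windows of both strands was counted under its own strand. Upstream windows of both strands held 9, 38 and 5 clusters in replicates 1 to 3.

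Upstream of starts, clusters on the opposite strand outnumbered those on the same strand, 112 to 48 in replicate 1, 205 to 94 in replicate 2 and 67 to 35 in replicate 3, leaving out clusters in windows of both strands. In percentage points, opposite minus same strand was 40, 37.1 and 31.4 (mean 36.2 ± 4.39, SD, n = 3; exact two-sided sign-flip permutation p = 0.25), in the same direction in 3 of 3 replicates. Within 500 nt the mean was 40.0 ± 2.28. Downstream of ends the order was the opposite, with 70, 118 and 37 clusters on the same strand and 17, 38 and 7 on the other. The clusters before starts therefore lay mostly on the strand that points away from the gene, and those after ends mostly on the strand of the gene.

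**Figure D4:**
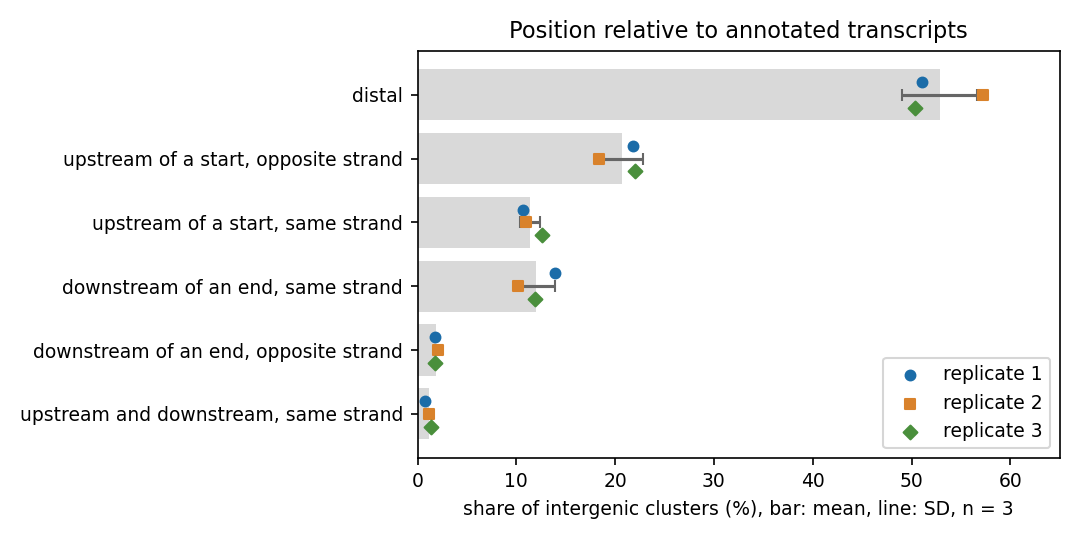
Share of intergenic clusters (x, %) in each position relative to annotated transcripts (y), with windows of 1000 nt; bars show the mean of 3 replicates, lines the SD and markers the replicates. After distal clusters, those opposite an upstream window are the most frequent, at 20.7%, and those opposite a downstream window are rare, at 1.89%. Clusters in windows of both strands are counted under their own strand.

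The opposite-strand upstream clusters named 262 genes on the other strand. Names were taken from all opposite-strand annotation of a cluster, so a gene may be named through a downstream window. Of these, 198 had such a cluster in 1 replicate, 49 in 2 and 15 in 3. These counts cover intergenic clusters alone, and no matching count over all clusters was made. Beside SLC44A1, LSR and USF2 (which share 1 site), CDK5RAP1 and FOXI3, the 15 held KIAA0513 (26, 13 and 39 conversions in replicates 1 to 3), the growth factor receptor gene IGF2R (13, 13 and 38) and the zinc finger gene BNC2 (39, 6 and 16). POGK had 25, 9 and 20, LETM1, a gene of the inner mitochondrial membrane, 14, 14 and 22, and HS1BP3 14, 8 and 27. The remaining 4 were lower: RAVER2 with 5, 24 and 16, EDF1 with 19, 8 and 5, GRK5 with 13, 1 and 5, and GATAD2A with 4, 1 and 2. No single replicate led throughout: replicate 1 was highest at some of these genes and replicate 3 at others.

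Some intergenic clusters lay near genes that carried clusters themselves, mostly on the downstream side. In replicates 1 to 3, 22.8%, 20.9% and 8.04% of intergenic clusters (mean 17.2% ± 8.03, SD, n = 3) had a cluster in a named gene within 10 kb on the same strand. Where they did, the intergenic cluster lay 3′ of it in 91 of 113, 180 of 227 and 17 of 23 cases. The rule keeps intergenic clusters outside genes, so the side also depends on where clusters lie within genes. No expected share was computed, and how much of the excess follows from this was not tested. Downstream minus upstream was 61.1, 58.6 and 47.8 percentage points (mean 55.8 ± 7.04, SD, n = 3; exact two-sided sign-flip permutation p = 0.25), in the same direction in 3 of 3 replicates. Within 1 kb 23, 24 and 4 clusters remained, and 14, 13 and 1 of them lay downstream, a difference of 21.7, 8.33 and -50 percentage points (mean -6.64 ± 38.1, SD, n = 3). The negative mean at that distance rests on the 4 clusters of replicate 3; without that replicate the mean was 15.04.

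The group with the most clusters in replicates 1 and 2 lay 3′ of CDK1, the kinase that drives entry into mitosis, at chr10:62554617-62570345 (plus). It held 7 intergenic clusters in replicate 1, 8 in replicate 2, 1 in replicate 3 and 4 in the series-wide list. In conversions these were 115, 40 and 16 in replicates 1 to 3, on 17, 21 and 2 distinct reads. CDK1 itself carried 2, 3 and 2 clusters with 40, 37 and 38 conversions. Distances were counted from the 3′-most CDK1 cluster edge of any list, the same point for all replicates. From there the intergenic clusters reached 13724 and 16117 nt in replicates 1 and 2. The single cluster of replicate 3 lay at 1570 nt. Single clusters of the group were shallow, at 7 to 26 conversions in replicate 1 and 3 to 9 in replicate 2, where the deepest single CDK1 cluster had 35 and 29.

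A group 3′ of ALYREF, an mRNA export factor, was found in all 3 replicates, at chr17:79839396-79844286 (minus), with 3, 5 and 2 intergenic clusters and 62, 62 and 45 conversions. The clusters in ALYREF held 32, 21 and 31 conversions. The deepest cluster of the group lay at its far end, at the recurrent site chr17:79839396-79839439 with 30, 37 and 29 conversions. Its distance from the last ALYREF cluster of any list was 6292, 6305 and 6304 nt in replicates 1 to 3. That site is also 426 nt upstream of a cluster in RP11-498C9.15, a noncoding gene, on the same strand, so it cannot be assigned to either. A group 3′ of DYRK1B, a protein kinase gene, at chr19:40303881-40315789 (minus), chosen after its values were seen, held 3, 4 and 1 clusters with 41, 52 and 2 conversions.

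**Figure D5:**
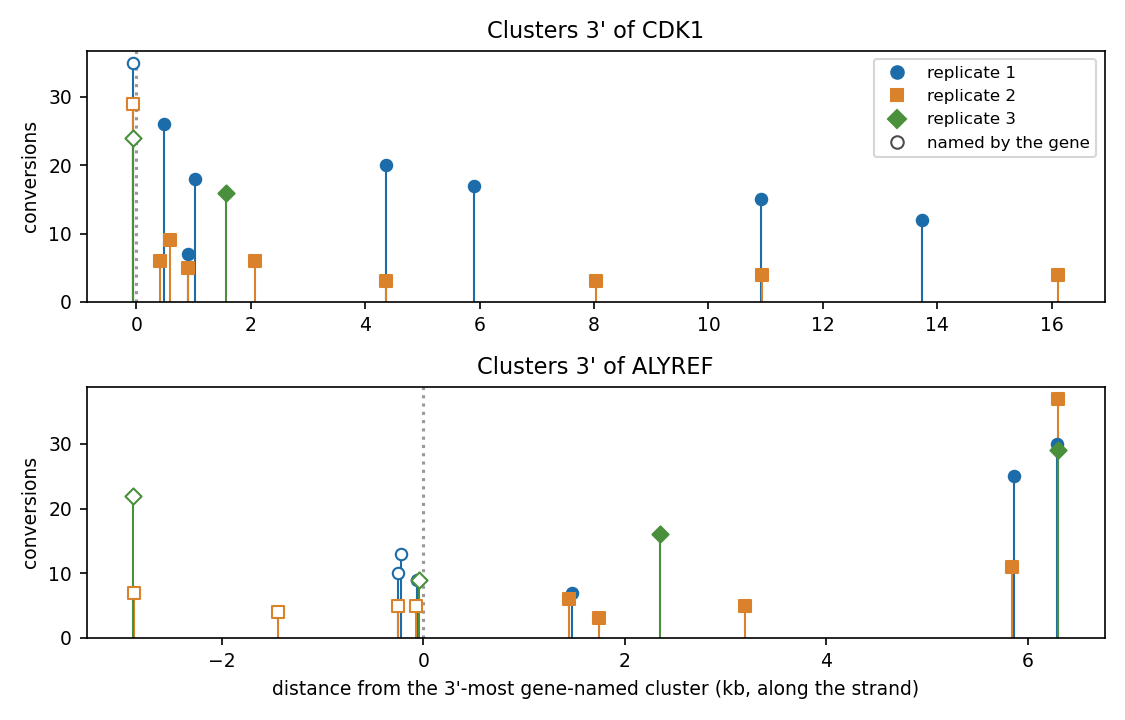
Conversions per cluster (y) against distance along the strand (x, kb) for CDK1 (top) and ALYREF (bottom). Distance is counted from the 3′-most cluster in the gene in any list, the same point for all replicates. Filled markers are intergenic clusters, open markers clusters in the gene, and colours and markers the replicates. The CDK1 group extends to 16117 nt in replicate 2, and the ALYREF group ends in a site, 6304 nt away in replicate 3, that all 3 replicates share.

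The group with the most clusters in replicate 3, named after its values were seen, was chr3:193852452-193859416 (minus), with 3 clusters and 54 conversions. The series-wide list had 4 clusters with 53 conversions at chr10:98748038-98750458 (plus), between a cluster in C10orf12 and one in RP11-175O19.4, both on the same strand, so the group cannot be assigned to either. There replicates 1 to 3 had 2, 3 and 1 clusters with 24, 17 and 7 conversions. Downstream of MAPRE1, which encodes a protein of microtubule plus ends, 3 series-wide clusters with 49 conversions lay at chr20:31442214-31443160 (plus), and the replicates had 1, 2 and 1 clusters with 9, 19 and 27. The group with the most series-wide conversions, 228, was chr19:44710349-44711900 (plus), made almost wholly by the deep site at its end, and replicates 1 to 3 had 231, 20 and 0 conversions there. At chr2:88752372-88752433 the group was the FOXI3 site split in 2 clusters. Counting groups of clusters chained at up to 10 kb on 1 strand, there were 30 groups with 72 clusters, 75 with 174 and 6 with 13 in replicates 1 to 3, of which 8, 14 and 1 had at least 3 clusters.

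Most intergenic clusters stood alone. Another intergenic cluster within 10 kb on the same strand was found for 14.5%, 16.0% and 4.55% of them, while 59.1%, 53.3% and 28.0% of all clusters had any other cluster that near. The difference was -44.5, -37.3 and -23.4 percentage points (mean -35.1 ± 10.7, SD, n = 3; exact two-sided sign-flip permutation p = 0.25). These shares rest on neighbours of unequal number, since intergenic clusters are few, and the rule itself places them outside genes. How much of the difference follows from the rule was not tested. With any cluster allowed as the neighbour, 33.3%, 35.2% and 14.7% of intergenic clusters had one, and the difference from all clusters was -25.8, -18.1 and -13.3 (mean -19.1 ± 6.30, SD, n = 3).

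The clusters lay on every autosome and on chromosome X in each replicate. Chromosome 1 had the most in each replicate, 69, 144 and 37, or 13.4% ± 0.495 of intergenic clusters (SD, n = 3), and it held 11.8% ± 0.195 of all clusters. Chromosome 19 followed in replicates 1 and 3, with 44 and 22, and had 66 in replicate 2, where chromosome 6 had 79. Relative to its own clusters, chromosome 12 had few intergenic ones, 2.34% in replicate 1, 2.41% in replicate 3 and 2.27% in the series-wide list, the lowest share of any autosome or chromosome X in those lists. Replicate 2 had 5.13% there, and its lowest was chromosome 22 at 4.12%. Among autosomes and chromosome X the highest share was chromosome 21 in replicate 3, where 11 of 57 clusters (19.3%) were intergenic. Replicates 1 and 2 had 5.93% and 8.33% there, so the mean of 11.2% ± 7.13 (SD, n = 3) rests on replicate 3 and was 7.13% without it. Chromosome 10, with the CDK1 and C10orf12 groups, had 7.31% ± 0.997.

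Beside the windows around genes, the rule left repeats of other classes. Of the clusters, 412 of 496 in replicate 1, 871 of 1085 in replicate 2 and 242 of 286 in replicate 3 touched no repeat on either strand. On their own strand 55, 118 and 26 clusters of replicates 1 to 3 lay in a repeat. MIR SINEs, an old repeat family, led in replicates 1 and 2 with 21 and 47 clusters, while replicate 3 had 6 of these and 9 in low-complexity sequence. Clusters with no annotation mark at all, on either strand, numbered 197, 485 and 120 in replicates 1 to 3 (42.1% ± 2.50, SD, n = 3).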

How the data were processed

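PAR-CLIP clusters of 3 replicates of 1 group were analysed. Per the submitters' processing notes, reads were handled with Bowtie2 2.1.0 on hg19. The authors deposited 1 list per replicate and 1 series-wide list. Per the file attributes, the authors' program gave each cluster a count of T-to-C conversions, not normalised to depth, and an estimated false discovery rate of 5%. Replicate lists were marked as filtered by length. The deposited entropy score was read and not used. Depth is known only as listed conversions, 1306125, 1060791 and 595487, so tested values were computed within lists. Conversions of single sites and groups are given side by side without adjustment for depth. Replicates have up to 2 sequencing runs.

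Clusters overlap when they share at least 1 nt on the same strand. Neighbours and groups used 10 kb, counted between edges. Window marks and genes came from the deposited annotation; transcript accessions were given symbols by the RefSeq table of GRCh38.p14. Named sites were the 10 series-wide members with most conversions, the top 3 of each replicate, up to 15 sites in all 3 replicates, and the largest groups. The members and lists were chosen with earlier results of these data known. For 6 results the signs of the replicate values were flipped in an exact permutation test, two-sided (Benjamini-Hochberg adjusted over the 6, the raw p of 0.25 becomes 0.3 and that of 0.5 stays 0.5). Such p-values measure only the spread between these samples. Overlap code was tested on simulated data, where 100% of 400 clusters equalled a direct count. Python 3.11.15, numpy 2.4.6, scipy 1.17.1 and matplotlib 3.10.9 were used. Alternatives varied the overlap, distance, abundance measure, minimum of 3 distinct reads, member rule and replicates.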

Additional observations from a re-analysis of the deposited data

How the results depend on the processing

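Of the recomputed values, 55 kept their direction or stayed within the spread between replicates, 2 moved and 1 reversed; with 3 replicates no tested value could pass a threshold of 0.05, so only directions were compared. The share of intergenic clusters with a gene cluster within 10 kb, 17.2%, was 2.75% at 1 kb and 43.0% at 100 kb. The excess on the downstream side turned from 55.8 to -6.64 percentage points at 1 kb through the 4 clusters of replicate 3, was 15.04 there without that replicate, and was 26.8 at 100 kb; this alternative and those on position windows, on the weighting by distinct reads, on small RNA clusters and on any cluster as neighbour were chosen after seeing the data. Leaving out each replicate in turn gave -9.59 to -5.05 percentage points for replicate support, -40.9 to -30.4 for grouping, 53.2 to 59.8 for the downstream side, 34.2 to 38.6 for the strand upstream of starts, -4.94 to -4.14 for the share of conversions and -0.24 to -0.12 for median log2 conversions. For support, an overlap of 50% of both clusters gave -4.39, and 3 or more distinct reads gave -10.4. The gap between conversion and cluster shares was -2.83 with distinct reads and -1.88 for members with no annotation mark. The difference of median log2 conversions was -0.46 with at least 3 distinct reads. Of the recomputed shares of conversions at the deep sites, 39 stayed within the spread between replicates and 6 moved further, all by distinct or all reads in place of conversions. No p below 0.25 was possible. No paired analysis was possible because there is 1 group.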
